A study of Mus musculus with 12 samples.

Results

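Interferon-high cells were the cells of a gate for non-proliferating, non-blood cells that carried at least 4 UMIs (unique molecular identifiers, each a counted RNA molecule) of the interferon-induced genes Iigp1, Gbp2, Igtp and Ifit3 together. The gate allowed at most 1 UMI of Mki67 and Top2a, at most 1 of Tyrobp, and none of the blood cell genes Ptprc and Cd3e or the endothelial gene Pecam1. It held 56255 of 116375 cells assigned to a hashtag, of which 6151 (10.9% of gate cells, 5.29% of assigned cells) were interferon-high. Cells of the same gate with none of these 4 transcripts, called interferon-zero, numbered 36375 and served for comparison. Between both states lay 13729 cells (24.4% of the gate) with 1 to 3 such UMIs. At the boundary, 1051 cells held exactly 4 and 1659 cells held 3. The members were thus chosen on measured values of these genes.

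The cells came from mouse samples of SCC35 lines in a series on melanoma rejection, profiled with 10x Genomics 5′ chemistry, and may include cells of the host. The labels' protocol describes the dissociation of tumours and does not say whether it covers the day 0 samples. Control tumours came from lines 15 and 18, which the labels call Mif KO control, and knockout tumours from the Mif KO lines 19 and 24. The deleted gene, Mif, codes for a cytokine that inhibits macrophage migration. Each hashtagged sample is called a tumour here, day 0 samples included. Samples were tagged with hashtag antibodies, and the deposited hashtag sheet lists the line, the letter and the day (0, 6, 10 or 16) of each tag. Each group thus consisted of 2 lines, and how the lines were derived, the host strain and age, the control construct and the meaning of day 0 are stated in none of the sources used. The comparisons used 21 control and 21 Mif KO tumours with 5129 interferon-high cells. Another 3 tumours called WT in the sheet, with 1022 such cells, entered none. Nothing states that the letters are separate animals, so p-values measure only the spread between these samples, which may be technical.

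The 6 libraries held 151385933 to 239699029 gene UMIs, and pairs of libraries shared 570 to 1503 cell barcodes. Library and line cannot be told apart in the 4 single-line libraries. The other 2 libraries mixed lines of both groups. In 38 tumours with at least 20 cells in each state (21 to 493 interferon-high cells, median 72), interferon-high cells had 3894 to 15647 median UMIs per tumour and interferon-zero cells 1560 to 11446. Interferon-high cells were the deeper state in 32 of these 38 tumours. Stromal or skin markers (at least 3 UMIs of a fibroblast, pericyte, endothelial or keratinocyte list) were carried by 683 interferon-high cells (11.1%) and 1426 interferon-zero cells (3.92%). Values without these marker-positive cells are given beside the gene groups they move most.

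Interferons are secreted proteins that cells release on infection, nucleic acid sensing or T cell activation. Type I interferons such as interferon-beta switch on genes through the interferon-stimulated response element (ISRE). Type II interferon, interferon-gamma, is made mainly by T and NK cells and acts through the gamma-activated site (GAS), then through IRF1. Ifit3 is a classic antiviral target of type I interferon. Gbp2, Igtp and Iigp1 encode GTPases of the guanylate-binding and immunity-related families, which act against intracellular pathogens and are strongly induced by interferon-gamma. In tumours, the response also raises peptide presentation on MHC class I and the release of chemokines that attract T cells.

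The promoters of 3 of the 4 gate genes and of Cxcl10 are shown because they hold the sequence element that the response is known for. The remaining gate gene, Iigp1, had no window and was not searched. The windows run 250 bases before to 50 after the gene start, 5′ to 3′ on the gene's strand, from RefSeq on GRCm38.p6. Capitals mark matches to the ISRE core GAAANNGAAA on either strand. The windows lie at chr19:34583279-34583578 (Ifit3, plus strand), chr3:142620413-142620712 (Gbp2, plus strand), chr11:58199306-58199605 (Igtp, plus strand) and chr5:92348840-92349139 (Cxcl10, minus strand).
Ifit3 promoter window: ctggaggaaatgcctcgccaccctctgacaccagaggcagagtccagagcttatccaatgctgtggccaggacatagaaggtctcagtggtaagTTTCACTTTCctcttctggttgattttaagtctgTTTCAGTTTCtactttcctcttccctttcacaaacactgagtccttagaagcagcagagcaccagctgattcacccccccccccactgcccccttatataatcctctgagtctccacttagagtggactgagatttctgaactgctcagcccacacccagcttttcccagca
Gbp2 promoter window: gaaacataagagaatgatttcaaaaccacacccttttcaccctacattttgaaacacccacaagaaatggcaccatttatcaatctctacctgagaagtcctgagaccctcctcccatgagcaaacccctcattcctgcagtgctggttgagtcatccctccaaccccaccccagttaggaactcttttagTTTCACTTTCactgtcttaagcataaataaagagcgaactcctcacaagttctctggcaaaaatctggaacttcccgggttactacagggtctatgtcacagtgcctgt
Igtp promoter window: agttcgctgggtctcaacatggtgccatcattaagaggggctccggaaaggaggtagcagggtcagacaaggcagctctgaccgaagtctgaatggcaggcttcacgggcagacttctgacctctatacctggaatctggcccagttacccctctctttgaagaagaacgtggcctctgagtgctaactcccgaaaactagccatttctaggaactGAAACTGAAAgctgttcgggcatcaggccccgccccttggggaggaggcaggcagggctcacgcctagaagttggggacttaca
Cxcl10 promoter window: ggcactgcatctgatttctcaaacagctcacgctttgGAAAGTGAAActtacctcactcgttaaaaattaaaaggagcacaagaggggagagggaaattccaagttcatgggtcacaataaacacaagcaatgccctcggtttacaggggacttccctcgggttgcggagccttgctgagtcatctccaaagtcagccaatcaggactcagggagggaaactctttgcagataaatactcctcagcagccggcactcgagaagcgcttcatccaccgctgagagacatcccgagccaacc
Ifit3 held 2 matches, whose first bases lay at -156 and -122 from the gene start. Gbp2 held 1 at -59, Igtp 1 at -34 and Cxcl10 1 at -213.

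The same search over the lists of interferon genes gave a match in 8 of 9 other interferon-inducible GTPase genes with a window (88.9%), 15 of 30 antiviral genes (50%), 5 of 18 MHC class I genes (27.8%) and 1 of 8 chemokine genes (12.5%). Of 27025 genes with a window, 1079 (3.99%) held one. The GAS letters TTCNNNGAA read the same on both strands and were searched separately. They were in 5 of the 9 GTPase windows (55.6%) and 7 of the 30 antiviral windows (23.3%). In the MHC class I list 1 of 18 held them (5.56%), in the chemokine list 0 of 8 (0%), and of all genes 9.55%. Igtp held 1 such match and the other printed windows 0. A match is a description of the letters and not evidence of binding.

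The fifth marker of these cells, Cxcl10, was not used by the gate. This chemokine, which draws T cells through CXCR3, had 61.5 to 3277 CPM (UMI counts of the summed cells, scaled to their total UMIs) in interferon-high cells, with a median of 738 CPM over 38 tumours. In interferon-zero cells it had 2.58 to 319 CPM, with a median of 28.8. Within each of the 38 tumours it was higher in the interferon-high state. Cells of the tumour lines had no marker of their own. The summed melanocytic markers had a median of 16.1 CPM in interferon-high and 16.7 CPM in interferon-zero cells, with 3 of the 8 genes at 0 in the former, so these are gate cells and not identified as tumour cells. Macrophage markers summed to 11.7 to 268 CPM (median 76.0) in interferon-high cells and 24.8 to 696 CPM (median 145) in interferon-zero cells, against a median of 6284 CPM in Ptprc-positive cells. T-cell markers had medians of 4.57 and 8.72 CPM in the gate states and 404 CPM in Ptprc-positive cells. Fibroblast markers summed to medians of 460 CPM in interferon-high and 138 CPM in interferon-zero cells.

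The difference between the states is a description, because the gate chose the cells on it. Over 8040 genes it was at least 1 on the log2(CPM + 10) scale, as the median over 38 tumours, for 112 genes (1.39%) in the direction of interferon-high cells and for 0 genes (0%) in the other. The antiviral program led the list. Ifit1, an inhibitor of the translation of viral RNA, had 156 to 873 CPM in interferon-high cells (median 513) and 6.88 to 51.0 CPM in interferon-zero cells (median 17.5). The lowest interferon-high tumour therefore lay above the highest interferon-zero tumour for Ifit1, and the same held for Isg15, Rsad2, Oasl2, Usp18, Irf7, Cmpk2, Phf11d and Ifit3b. The median difference was 4.02 for Ifit1, 3.45 for the antiviral enzyme Rsad2, 3.33 for the ubiquitin-like modifier Isg15, and 2.62 for Oasl2. Ifit3b reached 4.29, but it is a near copy of the gate gene Ifit3 and its counts may be split with it. Of 36 antiviral genes tested, 31 lay at or above 1, with a median of 1.67.

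All 11 measured GTPase genes outside the gate lay at or above 1, with a median of 2.29. Irgm1, a GTPase of vacuole defence, had 29.9 to 192 CPM (median 80.1) in interferon-high and 3.97 to 33.0 CPM (median 7.98) in interferon-zero cells. The states overlapped for Irgm1 only at the edge, with 37 of 38 interferon-high values above the highest interferon-zero value. Gbp3 and Gbp7 differed by 2.59 and 2.57. Tgtp1 and Tgtp2, near-identical neighbours whose counts cannot be firmly separated, differed by 2.01 and 2.30. Over all 8040 genes the median difference was -0.04.

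Signalling genes divided by gene. Irf7, the amplifier of type I interferon production, differed by 2.51, Stat2 by 1.67 and Irf1 by 1.22. In all, 5 of 15 signalling genes reached 1, and the list's median was 0.57. Socs1, a feedback inhibitor, differed by 0.66. Of the interferon receptor genes, Ifngr1 had 41.5 CPM ± 18.6 (SD, n = 38) in interferon-high against 37.6 ± 17.5 in interferon-zero cells, and Ifnar1 had 23.2 ± 8.01 against 22.6 ± 5.56. Ifnar2 had 100.4 CPM ± 23.3 against 76.3 ± 16.1 (higher in 32 of 38 tumours), and Ifngr2 had 28.2 ± 8.55 against 21.4 ± 5.22 (higher in 33). Of 5 receptor genes, 0 reached 1.

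Genes of peptide presentation on MHC class I were higher by smaller amounts. The peptide transporter Tap1 differed by 1.92, the immunoproteasome subunits Psmb9 and Psmb10 by 1.80 each, and the non-classical H2-T22 by 1.63. The abundant chains differed less: H2-K1 by 0.73, H2-D1 by 0.54 and B2m by 0.46. H2-K1 had 626 to 3366 CPM (median 1530) in interferon-high and 298 to 2966 CPM (median 863) in interferon-zero cells. Its ranges overlapped widely across tumours, although the interferon-high state was higher within 38 of 38. The list had 10 of 21 genes at or above 1 and a median of 0.97. Taken by day, 2 (day 0), 11 (day 6), 7 (day 10) and 10 genes (day 16) of this list reached 1. The GTPase list had 7 on day 0 and 11 on each later day, and the antiviral list 21, 33, 30 and 32. Over all 8040 genes the counts were 52, 218, 106 and 105. Cd274, which encodes the checkpoint ligand PD-L1, differed by 1.46, and Lgals9 by 1.17, the only 2 of 6 immune inhibitory genes at or above 1 (list median 0.41). MHC class II genes did not follow, with 0 of 6 at 1 and a median of -0.49, which was 0.20 when cells of both states were matched on UMIs.

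**Figure D1:**
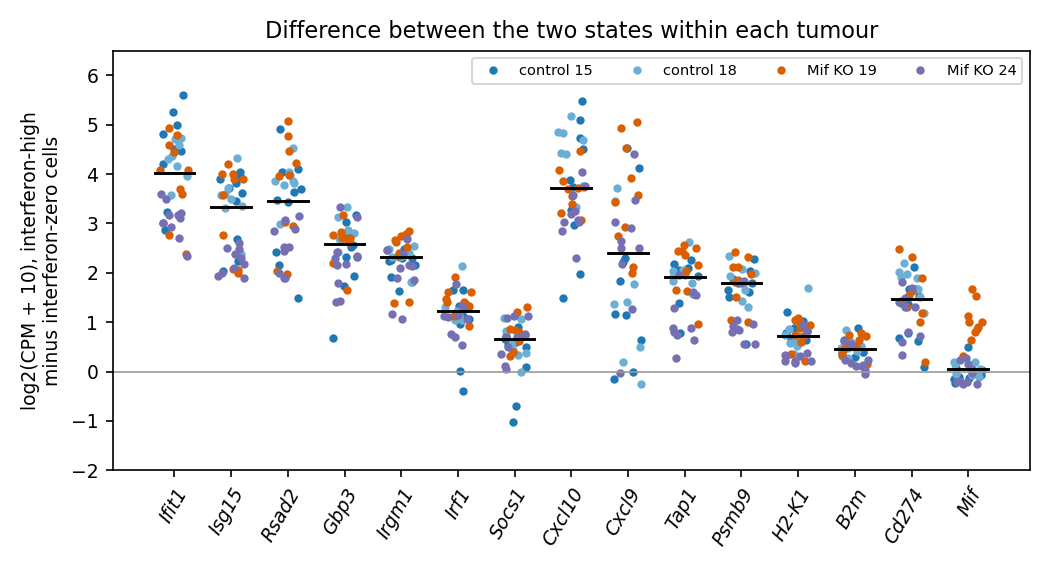
Difference between interferon-high and interferon-zero cells within each of 38 tumours, on the log2(CPM + 10) scale, for genes outside the gate; points are tumours coloured by line and bars are medians. Ifit1 has the highest median shown (4.02), H2-K1 and B2m have smaller medians (0.73 and 0.46), and Mif lies between 0.32 and 1.67 in line 19 and between -0.26 and 0.50 in the other lines.

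Some chemokine values moved when marker-positive cells were left out, and the list went from 5 to 3 of 12 genes at a median difference of 1 or more. Cxcl9, an interferon-gamma-induced partner of Cxcl10, differed by 2.40 over all cells and by 0.79 once cells with stromal or skin markers were left out, over 36 tumours. Its mean in interferon-high cells moved from 93.3 to 19.8 CPM (line 15), from 80.9 to 35.2 CPM (line 18), from 227 to 13.7 CPM (line 19) and from 326 to 144 CPM (line 24). The mean Cxcl9 level was thus lower without marker-positive cells in each of the 4 lines. The monocyte attractant Ccl2 moved from 1.93 to 1.34 and Ccl7 from 1.63 to 0.27, while Ccl5, which attracts T cells, stayed at 1.49 and Cxcl10 at 3.68. The complement inhibitor Serping1 moved from 1.28 to 0.00 and the matrix proteoglycan Dcn from 1.68 to -0.07. Of the lists above, the GTPases (11 of 11), antiviral genes (31 of 36) and MHC class I genes (10 of 21) had the same counts without these cells. The part that stromal cells take in the gate beyond these counts was not tested.

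**Figure D2:**
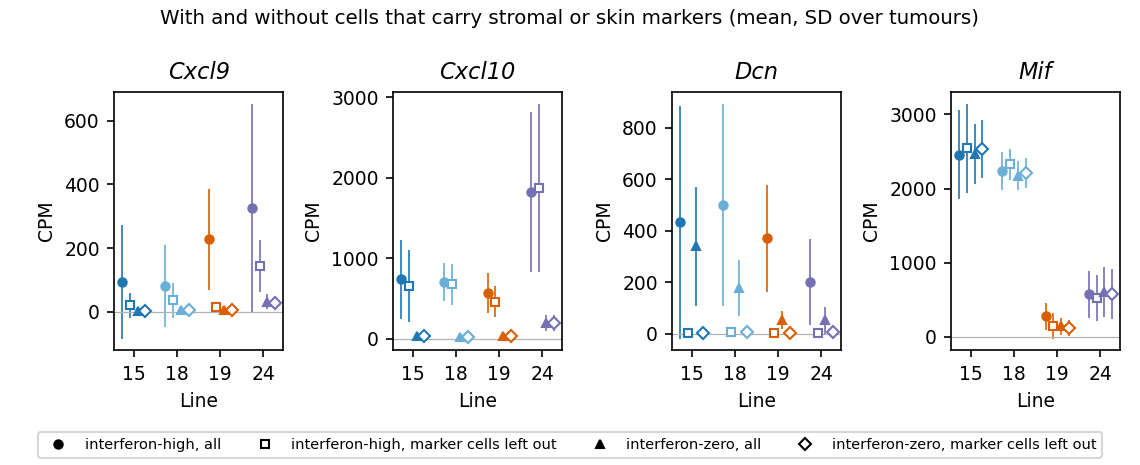
Mean CPM with SD over tumours of Cxcl9, Cxcl10, Dcn and Mif in each line, in interferon-high (circles, squares) and interferon-zero cells (triangles, diamonds), with all cells (filled) and without cells that carry stromal or skin markers (open). Without these cells Cxcl9 is at 13.7 to 35.2 CPM in lines 15, 18 and 19 and at 144 CPM in line 24, whereas Cxcl10 changes little.

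Interferon transcripts themselves were rare. Ifnb1, which encodes interferon-beta, was found in 21 of 5129 interferon-high cells (0.409%) with 138 UMIs, in 8 of 34260 interferon-zero cells (0.0234%) with 19 UMIs and in 40 of 55644 cells outside the gate (0.0719%) with 99 UMIs. A single line 19 cell of day 16 held 66 of the 138 UMIs, and the next cell held 17. The 21 cells came from all 4 lines and none from day 0, and 1 of them carried stromal or skin markers. Interferon-high cells were also the deeper state, and the part of depth in these shares was not tested. Ifng, the interferon-gamma gene, had 11 UMIs in interferon-high and 328 in interferon-zero cells of 38 tumours, against 3858 in Ptprc-positive cells of 34 tumours. Its mean level was 0.239 CPM, 2.55 CPM and 41.8 CPM in these.

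Across tumours, the genes whose gate-wide level was most like the summed level of the 4 gate genes came from the same response. Over 42 tumours and 8051 genes, Pearson's r on CPM was 0.96 for Gbp7, 0.95 for the proteasome activator Psme1, 0.94 for Psme2, Parp14 and Gbp6, and 0.93 for Gbp3, Ifi47, Tap1 and Oasl2. These are among the highest values. The tumours share libraries and lines, so they are a description.

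How many gate cells were interferon-high was compared at equal depth. Each cell with at least 2000 UMIs was thinned to 2000, and cells with at least 4 gate-gene UMIs left were counted. Cells under 2000 UMIs were left out, 3905 of 22256 gate cells (17.5%) in control and 5724 of 29446 (19.4%) in Mif KO tumours. By line these were 14.0% (15), 19.3% (18), 12.5% (19) and 27.1% (24), with up to 44.8% in a tumour of line 24. The share left out was thus highest in line 24, and the part of these cells in the line 24 share was not tested beyond thinning to 1000 UMIs, where 11.7% of line 24 cells were left out and the group difference was 1.57 points (permutation p = 0.0282). In control tumours 2.63% ± 3.14 (SD, n = 21) of gate cells with at least 2000 UMIs were interferon-high, and in Mif KO tumours 6.76% ± 6.94 (SD, n = 21). The shares ran from 0% to 15.4% in control tumours and from 0.518% to 25.9% in Mif KO tumours and overlapped widely. The difference of 4.14 percentage points had p = 0.0116 in a two-sided permutation test within days over tumours. Line means were 2.15% (15), 3.14% (18), 3.38% (19) and 10.5% (24), and an exact permutation test over the 4 lines gave p = 0.333, the smallest it allows. Without line 24 the difference was 0.753 points (permutation p = 0.586), without line 15 it was 3.62 (permutation p = 0.147), and without line 19 it was 7.86 (permutation p = 0.00026). The mixed libraries alone gave 8.76% ± 9.68 in 6 Mif KO and 1.83% ± 0.938 in 6 control tumours (permutation p = 0.102). Without thinning the means were 13.3% and 6.80%. With a top hashtag of at least 10 times the second the difference was 3.46 points and did not pass (permutation p = 0.0696).

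The 2 groups stood apart on day 6, a split chosen after the data were seen. The 5 Mif KO tumours had shares of 6.94%, 9.98%, 11.4%, 15.6% and 25.9%, and the 6 control tumours 0.613% to 4.11%. All Mif KO tumours lay above all control tumours, with means of 14.0% ± 7.35 and 1.65% ± 1.26 (exact two-sided permutation p = 0.00433, adjusted over 4 days 0.0173). Both KO lines were high, with means of 9.44% in line 19 and 20.7% in line 24. The test permutes tumours, which come from 2 lines per group. Over the 4 lines the smallest p that an exact permutation test allows is 0.333. The WT tumour of day 6, outside the comparison, had 18.9%, within the range of the Mif KO tumours. On the other days the difference did not pass the test: 1.65% against 0.680% on day 0 (exact permutation, adjusted p = 0.457), 3.39% against 4.30% on day 10 (0.844) and 7.55% against 2.90% on day 16 (0.364). The control mean of day 10 held 1 line 18 tumour at 15.4%, where the other 5 had 0.837% to 2.84%. Leaving it out, an alternative chosen after seeing the data, gave a group difference over all days of 4.78 points (permutation p = 0.00139).

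**Figure D3:**
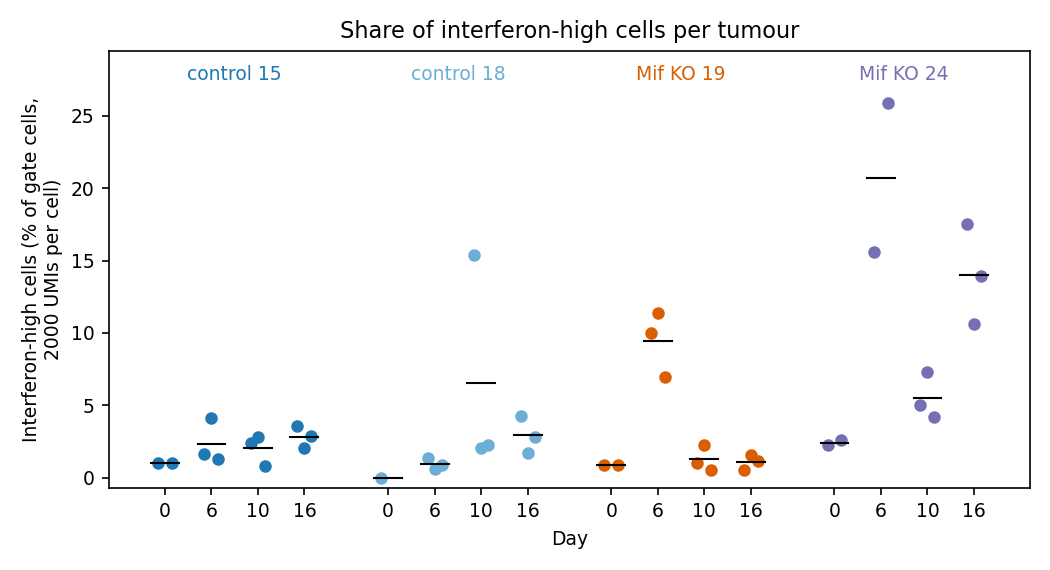
Percent of gate cells that were interferon-high after thinning to 2000 UMIs, by line and day; each point is a tumour and bars are means. Line 19 is high on day 6 (mean 9.44%) and near 1% on days 10 and 16, line 24 is high on days 6 and 16 (20.7% and 14.0%), and line 18 has 1 tumour at 15.4%.

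The lines followed different courses. In line 19 the mean share was 0.891% on day 0, 9.44% on day 6, 1.27% on day 10 and 1.08% on day 16. In line 24 it was 2.41%, 20.7%, 5.50% and 14.0%. In line 15 the means stayed between 1.02% and 2.84%. In line 18 they were 0% (0 of 62 cells, with a 95% Wilson interval up to 5.83%), 0.961%, 6.57% and 2.95%. The drop from day 6 to the later days was 8.48 points in Mif KO tumours and -1.94 points in control tumours. That difference of 10.4 points had p = 0.0337 (permutation within days). It was 12.3 (p = 0.0701, permutation) without line 15, 8.58 (p = 0.198) without line 18, 12.9 (p = 0.0699) without line 19, and 10.2 (p = 2e-05, permutation) without line 24. In the mixed libraries alone it was 12.6 points and did not pass (permutation p = 0.368). Each test without a line left 1 line in that line's group, so without line 24 the Mif KO tumours were those of line 19. These tests permute tumours and do not measure the spread between lines.

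Days were compared within the single-line libraries. The share was 1.23% ± 0.883 (SD, n = 7) on day 0 and 5.43% ± 5.29 (SD, n = 23) on days 6 to 16, a difference of 4.20 points (permutation within libraries, p = 0.0315). Of the 6 pairs of days, day 10 against day 0 passed the test (4.79% against 1.23%, a difference of 3.56 points, permutation p adjusted over the pairs 0.0373), while day 6 against day 0 (6.39%, adjusted permutation p = 0.0934) and day 16 against day 0 (5.24%, adjusted permutation p = 0.0785) did not. Without the line 18 tumour at 15.4% the day 10 mean was 3.28% ± 2.16 (SD, n = 7), and the difference of 2.04 points passed (adjusted permutation p = 0.0284). The call for days 6 to 16 against day 0 was lost with thinning to 1000 UMIs (1.42 points, permutation p = 0.0584), with a minimum of 2 UMIs (6.52 points, permutation p = 0.0583) and with the summed level of the 4 genes (147 CPM, permutation p = 0.0739). Without thinning the means were 9.38% and 10.7% (permutation p = 0.705), and median UMIs of interferon-high cells were 8844 to 15647 in the 5 day 0 tumours with at least 20 of them and 4460 to 10692 in the 9 such day 6 tumours. Leaving out line 15, 19 or 24 gave 5.05, 4.41 and 3.06 points with permutation p of 0.0614, 0.0568 and 0.0826.

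The mixture of gate transcripts differed by day. Ifit3 made up 71.5% ± 7.22 (SD, n = 5) of the 4 genes' UMIs in interferon-high cells of day 0, with a range of 63.4% to 83.3%. On day 6 it made up 20.5% ± 11.5 (SD, n = 9), with a range of 11.6% to 45.1%. No day 6 tumour reached the lowest day 0 tumour. The other genes filled the rest: Gbp2 went from 9.13% to 38.6%, Iigp1 from 14.5% to 29.0% and Igtp from 4.90% to 11.8%. Cells with all 4 transcripts were 10.1% of interferon-high cells on day 0 and 27.0% on day 6. On days 10 and 16 the mean Ifit3 part was 31.5% and 31.8%. Line 24 stayed low, at 19.7% and 13.2%, while line 15 stood at 47.6% and 41.6%. These shares describe the genes of the gate and are given without a test.

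**Figure D4:**
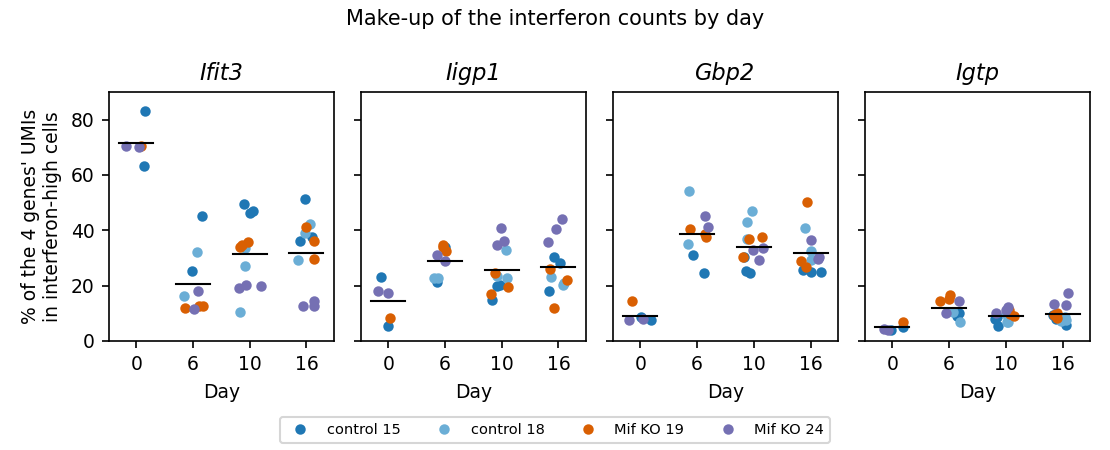
Percent of the 4 gate genes' UMIs that came from each gene in interferon-high cells, by day; points are tumours coloured by line and bars are means. Ifit3 gives 71.5% on day 0 and 20.5% on day 6, while Gbp2, Iigp1 and Igtp go from 9.13%, 14.5% and 4.90% to 38.6%, 29.0% and 11.8%.

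Outside the gate, interferon-high cells of day 6 and day 0 differed in many genes. The comparison was added after the data were seen and adjusts for line. Ptprc-positive cells were 0% to 1.19% of thinned cells in day 0 samples and 2.73% to 21.3% on days 6 to 16, and their part in any day 0 contrast was not tested. Median UMIs of interferon-high cells were 8844 to 15647 in the day 0 and 4460 to 10692 in the day 6 tumours, and 4 gate UMIs are a lower level per UMI in a deeper cell. The part of this in the contrast was not tested. Day 0 cells passed the gate mainly on Ifit3 (71.5% of gate UMIs), and day 6 cells mainly on the GTPase genes (Ifit3 20.5%). Levels of GTPase and antiviral genes may follow which gate gene admitted the cells, and that part was not tested either. Of 7987 genes, 1579 rose (19.8%) and 1463 fell (18.3%) by edgeR's quasi-likelihood test at an adjusted p under 0.05, 3042 in all (38.1%), with 9 day 6 and 5 day 0 tumours. All 11 GTPases rose, with a median log2 fold change of 1.97. Gbp3 had 8.85, 28.8, 29.3, 40.6 and 41.7 CPM in the day 0 tumours and 54.2 to 236 CPM (median 94.5) on day 6, without overlap (log2 fold change 1.97, SE 0.21, edgeR adjusted p 5.51e-10). Irf1, the transcription factor of the interferon-gamma arm, had 23.6 to 60.7 CPM on day 0 and 118 to 620 CPM on day 6, also without overlap (log2 fold change 3.44, SE 0.23). Socs1, a feedback inhibitor of JAK kinases, rose by 3.30. Batf2, an interferon-induced factor, also rose, from at most 0.912 CPM on day 0 to a mean of 16.5 CPM on day 6. In interferon-zero cells Irf1 had 9.33 to 33.9 CPM on day 0 and 37.0 to 192 CPM on day 6, again without overlap. Socs1 there had 9.68 to 28.4 CPM and 48.4 to 93.8 CPM, also without overlap. Gbp3 and Tap1 overlapped between these days in interferon-zero cells. Whether the day contrast is particular to interferon-high cells was not tested.

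Antiviral genes divided. Of 37 tested, 14 rose and 1, Ifit2, fell, with a list median of 0.41. Ifit1 had 199 to 687 CPM (median 419) on day 0 and 156 to 574 CPM (median 316) on day 6, and its log2 fold change of -0.33 (SE 0.30) did not pass the test (edgeR adjusted p 0.409). Isg15 likewise overlapped, with 782 to 1659 CPM and 932 to 2089 CPM (log2 fold change 0.30, edgeR adjusted p 0.15). Zbp1, a sensor of Z-form nucleic acids that can trigger cell death, rose by 2.99. Of 21 MHC class I genes 15 rose and 0 fell, with a median of 0.96. Tap1 had 32.5 to 53.2 CPM on day 0 and 71.8 to 180 CPM on day 6 (log2 fold change 1.89, SE 0.17), and Psmb10 rose by 2.08. H2-K1 and B2m had log2 fold changes of 0.39 and 0.16 that did not pass (edgeR adjusted p 0.0584 and 0.266). Cd274 rose by 2.96.

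Of 12 chemokines 10 rose and 0 fell, with a median of 3.52. Cxcl10 had 61.5 to 277 CPM on day 0 and 292 to 3277 CPM on day 6 (log2 fold change 3.49, SE 0.30, edgeR adjusted p 3.96e-12), with all day 6 tumours above all day 0 tumours. The largest changes were in Ccl8 (6.60), a monocyte attractant, the acute phase gene Saa3 (6.58), Batf2 and the pattern recognition gene Ptx3 (6.14), followed by Slpi, Il6 (5.27), Serpina3n, the NF-kappaB feedback gene Tnfaip3 (4.96), Lif and Ptn. Mean day 0 levels were near 0 for some of these (0.796 CPM for Ccl8, 0.440 CPM for Il6), so the size of these fold changes depends on the prior count of the fit. Mean Ccl8 over all 38 tumours was 34.7 CPM with and 2.09 CPM without marker-positive cells, and without them Ccl8, Saa3, Ptx3, Slpi and Serpina3n had too few counts to be tested. All 9 NF-kappaB target genes and all 10 early response genes tested rose, as did 3 of 8 housekeeping genes. Among the largest falls were Gpnmb (-2.80), a glycoprotein of lysosomes and melanosomes, the protease Prss23 (-2.04), the stress-response pseudokinase Trib3 (-1.95) and the matrix gene Ogn (-1.92). Markers of other cells moved too: all 4 fibroblast and all 4 macrophage genes tested rose. Without marker-positive cells 0 of the fibroblast genes, 4 of the macrophage genes, 7 of the chemokines, 6 of the NF-kappaB genes, 10 of the antiviral genes, 17 of the MHC class I genes and 11 of the GTPases rose. Of the complement genes 3 rose and 1 fell with marker-positive cells, and 0 rose and 3 fell without them. Marker-positive cells were 7.14% to 15.9% of interferon-high cells on day 0 in the 3 lines with such cells. On day 6 they were 29.2% (line 15), 22.1% (line 18), 19.3% (line 19) and 61 of 381 cells (line 24).

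**Figure D5:**
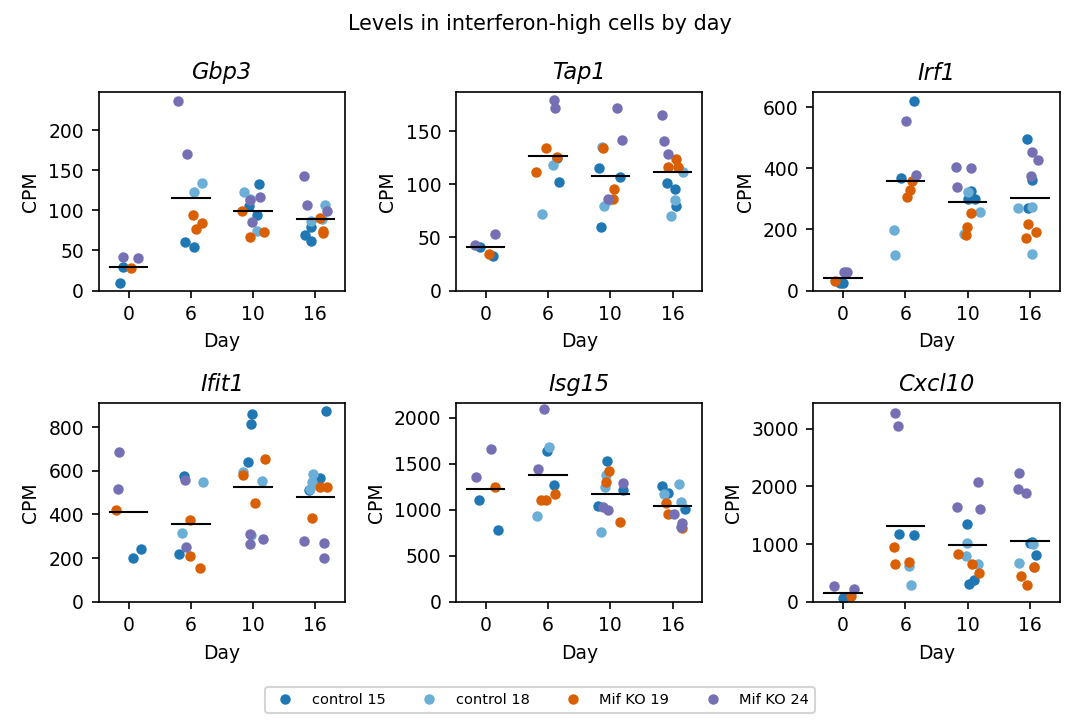
CPM in interferon-high cells by day for genes outside the gate, with a point per tumour coloured by line and bars for means. Gbp3, Tap1, Irf1 and Cxcl10 of day 0 lie below every day 6 tumour, whereas Ifit1 and Isg15 overlap across the days.

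Day 16 was set against day 6 in the same fit, with 12 and 9 tumours. By edgeR's quasi-likelihood test 170 genes rose (2.13%) and 216 fell (2.7%) of 7987, 386 in all (4.83%). Most interferon genes did not pass: among the GTPases 0 rose and 2 fell (Ifi47 by 0.67 and Gbp6 by 0.51 on the log2 scale), and among 37 antiviral genes 0 rose and 5 fell, Isg15 by 0.45 among them. Jak2 and Socs1 fell, by 0.69 and 0.66. H2-D1 rose by 0.51 and B2m by 0.43, while Psmb10 fell by 0.43, the 3 calls among 21 MHC class I genes. Of the chemokines 5 of 12 fell, among them Ccl8 (-2.29) and the neutrophil attractant Cxcl2 (-2.16). Without marker-positive cells 1 chemokine fell, and Cxcl2 did not pass (-0.89, edgeR adjusted p 0.129).

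The largest falls to day 16 were in Ptx3 (-3.28), Saa3 (-2.88) and Igfbp3 (-2.82), followed by Ccl8, Cxcl2, Abi3bp, the adhesion molecule Icam1 (-2.13), Cxcl14, Cxcl5 and Ifitm1. Other than Cxcl2, these had too few counts to be tested without marker-positive cells. The largest rises were in the opioid precursor Penk (2.49), the T cell co-stimulatory receptor gene Tnfrsf9 (1.49), Gm15867, Gpr137b and Anxa8. The matrix gene Fn1 had 677 to 1700 CPM (median 899) on day 6 and 1571 to 2814 CPM (median 1875) on day 16, with little overlap, and rose by 1.02 (SE 0.16). Of 10 hypoxia genes, 5 rose and 0 fell, and 6, 3, 0 and 5 rose without line 15, 18, 19 or 24. The count of 386 genes was 163, 177 and 172 without line 15, 18 or 19 and 610 without line 24, where 4 antiviral genes rose and 3 fell.

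Within interferon-high cells, Mif KO tumours were compared with control tumours, adjusting for day. Mif itself was 2459 CPM ± 594 (SD, n = 10) in control line 15 and 2234 ± 259 (n = 8) in control line 18. The KO lines had 280 CPM ± 182 (line 19, n = 10) and 573 CPM ± 313 (line 24, n = 10). The highest KO tumour had 1126 CPM and the lowest control tumour 1598 CPM, so the groups did not overlap. Within the KO lines Mif differed by library: line 19 tumours had 61.9 to 287 CPM in their own library and 442 to 570 CPM in the mixed ones, and line 24 tumours 242 to 573 CPM and 852 to 1126 CPM. The mixed libraries were thus the higher ones in both KO lines. In control line 15 they were the lower ones (1598 to 1853 CPM against 2103 to 3541 CPM). In control line 18 the ranges overlapped (2125 to 2177 CPM against 1824 to 2554 CPM). On the log2 scale the fold change reached -2.50 (SE 0.24), with an edgeR adjusted p of 3.44e-10. Without marker-positive cells line 19 had 152 CPM and line 24 had 528 CPM. Interferon-zero cells had 2464, 2171, 141 and 602 CPM in the 4 lines, close to the interferon-high level except in line 19.

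Over 6670 genes, edgeR's quasi-likelihood test called 925 higher in Mif KO (13.9%) and 890 lower (13.3%), 1815 in all (27.2%), with 20 Mif KO and 18 control tumours. Line is nested in group, and with 1 sum per line edgeR called 0 of 12266 genes, with 949 at an unadjusted p under 0.05. The mixed libraries alone gave 13 calls and a library term 68. The counts below therefore describe these 4 lines. Antiviral genes were called 3 times in each direction among 36, with a median of -0.05. Ifit1 had 156 to 687 CPM in Mif KO and 199 to 873 CPM in control tumours (log2 fold change -0.39, SE 0.18, edgeR adjusted p 0.111), and Isg15 had a log2 fold change of -0.05. Ifi27l2a, Bst2 and Parp14 were higher, and Ifit2, Ifit3b and Sp100 lower. Of these, Ifit3b is the near copy of the gate gene Ifit3 and is not read as a result.

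GTPases and presentation genes were called in 1 direction. Of 11 GTPases 6 were higher in Mif KO and 0 lower (Irgm1, Ifi47, Tgtp1, Tgtp2, Gbp4 and Gbp6), with a median of 0.49. Irgm1 had 29.9 to 192 CPM (median 97.6) in Mif KO and 52.5 to 129 CPM (median 69.3) in control tumours, which overlap (log2 fold change 0.49, SE 0.12, edgeR adjusted p 0.00288). Of 21 MHC class I genes 12 were higher and 0 lower, with a median of 0.38. H2-K1 was 2597 CPM ± 555 (n = 10) in line 24. It was 1317 ± 335 in line 19, 1403 ± 275 in line 15 and 1239 ± 375 in line 18. The group difference of 0.57 (log2, SE 0.14) thus followed 1 line. H2-K1 in interferon-zero cells was also highest in line 24, at 2039 CPM ± 633. Lines 19, 15 and 18 had 765 ± 175, 797 ± 193 and 759 ± 300 there. Without line 24 the calls were 0 higher and 1 lower among the GTPases and 0 among the MHC class I genes. On days 6 to 16 interferon-high cells had median UMIs of 4460 to 6724 in line 24 tumours of this fit. Those of lines 15, 18 and 19 had 5474 to 10692, 3894 to 7536.5 and 5804 to 9937. The part of depth in the group calls was not tested.

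Feedback inhibitors went both ways, with Socs1 higher by 0.65 (SE 0.15) and Socs3 lower (log2 fold change -0.66, SE 0.13) in Mif KO. Among chemokines 4 of 11 were higher and 1 lower. The membrane chemokine Cx3cl1 had a log2 fold change of 1.69, Cxcl9 of 1.62, Ccl8 of 1.30 and Cxcl10 of 0.79, against -0.84 for Ccl7. Mean Cxcl10 was 572 CPM in KO line 19, below control lines 15 and 18 (738 and 707 CPM), and 1819 CPM in KO line 24. Without marker-positive cells 3 chemokines were higher and 1 lower, and mean Cxcl9 was 13.7 CPM in KO line 19, below control lines 15 and 18 (19.8 and 35.2 CPM). Complement genes C3 (2.16), C1s1 (1.92) and C1ra (1.29) were higher, 3 of 4 tested, and 1 was without line 24 or without marker-positive cells. C3 averaged 7.52 ± 15.4 and 30.8 ± 68.1 CPM (SD) in control lines 15 and 18 and 44.0 ± 43.0 and 33.4 ± 27.2 CPM in KO lines 19 and 24, with wide overlap. Without marker-positive cells its means were 1.39, 1.75, 4.08 and 8.15 CPM. On day 6 its mean was higher in control (70.6 CPM) than in Mif KO tumours (27.8 CPM), with 1 control tumour at 197 CPM. Without line 24, 2 chemokines were higher and 2 lower. Among genes whose means in both KO lines lay beyond those of both control lines, a rule on line means that does not ask for separate tumours, the largest increase was in S100a16, a calcium-binding protein, with 66.2 to 205 CPM in Mif KO and 2.93 to 63.2 CPM in control tumours (log2 fold change 2.51, SE 0.18, edgeR adjusted p 2.9e-13). The groups did not overlap for S100a16. Next came C3, Ogn, Espn, Dclk1, Egln3, C1s1, the vascular growth factor receptor gene Flt1 (1.90), the matrix gene Postn (1.82) and Nr4a3. The lower ones were the steroid-metabolising enzyme gene Akr1c18 (-2.95), the tetraspanin Tspan6 (-2.60), Mif, the Wnt antagonist gene Dkk2 (-2.08), Rgs16, Tnn, Atp2a3, Slc37a2, Cck and Pmp22.

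The last comparison asked whether the step from interferon-zero to interferon-high differed between the groups. It takes each tumour as its own control, in 20 Mif KO and 18 control tumours. Of 10373 genes, edgeR's quasi-likelihood test called 104 with a larger step in Mif KO (1%) and 39 with a smaller one (0.376%), 143 in all (1.38%). Among 37 antiviral genes 0 were called with a larger and 11 with a smaller step, all 37 had a negative estimate, and the median was -0.69. Ifit1 went from a mean of 15.5 CPM in interferon-zero to 526 CPM in interferon-high cells in control tumours, and from 24.6 to 395 CPM in Mif KO tumours. The step was smaller in Mif KO by 1.03 on the log2 scale (estimate -1.03, SE 0.26, edgeR adjusted p 0.0235). Ifi44 (-1.42), Oas1g (-1.05), Cxcl10 (-1.05) and Ccl5 (-1.46) were also called. So was Ifit3b (-1.64), but its counts may be split with the gate gene Ifit3, which is 0 in interferon-zero cells by rule. The Ifit3b step is therefore not read as a result. Of the GTPases 2 of 11 were called smaller, and of 21 MHC class I genes 0. The gate's make-up differed by line. On day 6 the mean Ifit3 part was 35.1% (15), 24.1% (18), 12.3% (19) and 14.7% (24). On day 16 it was 41.6%, 36.8%, 35.6% and 13.2%. The part of this in these steps and in the group differences above was not tested. Line is nested in group, and no fit with 1 sum per line was run for the step.

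In interferon-zero cells line 24 had higher means than the other lines for Isg15, Cxcl10, Tap1, Psmb9 and H2-K1. Its mean Isg15 was 251 CPM ± 59.8 (n = 10), against 118 ± 64.3 in line 15, 97.3 ± 20.1 in line 18 and 135 ± 104 in line 19. For Cxcl10 it was 196 CPM against 35.4, 22.8 and 34.7 CPM, and for Tap1 53.4 CPM against 15.7, 16.9 and 17.5 CPM. In interferon-high cells of lines 24, 15, 18 and 19, mean Isg15 was 1248, 1203, 1191 and 1104 CPM and mean Ifit1 362, 550, 496 and 428 CPM. Mean Cxcl10 there was 1819 CPM in line 24 against 738, 707 and 572 CPM, so its mean was higher in line 24 in both states. Its ranges in interferon-high cells still overlapped, with 218 to 3277 CPM in line 24 and 61.5 to 1350 CPM in line 15. For Isg15 (SD 193 to 404) and Ifit1 (SD 116 to 260) the lines also overlapped in interferon-high cells. Interferon-zero cells of line 24 had median UMIs of 1560 to 5352 per tumour and those of the other lines 3280 to 11446. The part of depth in the interferon-zero values was not tested. Without line 24, 3 antiviral genes were called smaller and the median was -0.19. Without line 19, 32 were called and the median was -1.13, and 9 GTPases and 14 MHC class I genes were called smaller. Over all genes 8 of 10546 were called smaller without line 24 and 186 of 10328 without line 19. The genes with a larger step in Mif KO included the stromal genes Dcn (1.86), Tnc (1.86), Tagln (2.14), Adamts2 (2.05), Igfbp5 (2.61) and Rarres2 (1.79), beside Cck (3.04), Cxcl14, Ereg and Gpx3. Without marker-positive cells the split was 8 larger and 50 smaller, 0 fibroblast genes were called in place of 3, Dcn stood at -0.63 and 15 antiviral genes were called smaller.

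The share of interferon-high cells was also set against T cells, taken as the share of assigned cells with a Cd3e UMI after thinning. Over 35 tumours of days 6 to 16, Pearson's r was 0.556 (permutation p = 0.00182, adjusted over 20 relations 0.0278) and Spearman's rho 0.496 (permutation p = 0.00277, adjusted 0.0185). Without the 2 tumours farthest from the median T-cell share r was 0.449 (permutation p = 0.0142). Within libraries, where day 0 samples with a T-cell share of at most 0.208% were included, r was 0.895 (line 15), 0.856 (line 18), 0.265 (line 19), 0.802 (line 24) and -0.687 in the first mixed library (exact permutation p = 0.0726). Without the 2 tumours farthest from each library's median it was 0.844, 0.469, 0.584, 0.698 and -0.720. Within lines it was 0.017 (15), 0.627 (18), -0.025 (19) and -0.042 (24), and none of these 4 passed the adjusted test. Line 18 was thus at the pooled size (permutation p = 0.0285, adjusted 0.0873), with 0.254 without 2 tumours, and the other 3 lines were near 0. For the level of Ifng in Ptprc-positive cells, a relation added after seeing the data, r was 0.302 (permutation p = 0.0683, adjusted 0.132) and rho 0.499 (permutation p = 0.00252, adjusted 0.0185). Without the 2 most extreme tumours r was 0.621 (permutation p = 0.00017), and r ran from 0.547 to 0.979 within libraries and from 0.252 to 0.962 within lines. Without the 2 tumours farthest from the median, r was 0.825, 0.929, 0.709 and 0.969 in the libraries of lines 15, 18, 19 and 24 and -0.488 in the first mixed library. Within lines it was -0.053 (15), 0.287 (18), 0.798 (19) and -0.216 (24).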

How the data were processed

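Single-cell RNA was measured with 10x 5′ chemistry in 6 libraries. The values used are the deposited UMI counts for genes and hashtags in each barcode, made with Cell Ranger 6.0.0 on mm10 per the submitters' processing notes. Barcodes with at least 300 genes, at most 15% mitochondrial UMIs and a top hashtag of at least 20 counts and 3 times the second were kept. That hashtag rule was the treatment of doublets. The gate was applied to full counts. For shares, the 4 interferon genes were recounted in each gate cell after thinning to 2000 UMIs, although the plan had thinned before gating, and tumours needed at least 50 such cells. Counts were summed per tumour, with at least 20 cells, and tested with edgeR 4.0.16 (quasi-likelihood, TMM, Benjamini-Hochberg threshold 0.05). DESeq2 1.42.0 was an alternative. On simulated counts the test recovered 93% of 2-fold changes for Mif KO against control (6670 genes), 96% for day 16 against day 6 and 81% for day 6 against day 0 (7987 genes each), and 87% for the step between states (10373 genes). These counts were drawn from a common mean per gene, without line, library or day effects. The rates therefore do not describe recovery with lines nested in group. Permutation tests used 100000 resamples unless exact. Named genes were the list members and the 10 largest changes each way past the threshold. Members and lists were chosen with earlier results of these data known. Python 3.11.15 and R 4.3.3 were used. Single-tumour shares have counting error only as their stated precision. Results on 1 gene are not reported here.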

Additional observations from a re-analysis of the deposited data

Results flagged for a closer look

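Of 33 sets of 4 to 10 tumours searched, 11 held a value far from the others. For normally distributed values chance gives about 1 in 20. Shares and CPM need not be so distributed, some sets share tumours, and the chance rate for them was not tested. The share of interferon-high cells stood apart in 1 control tumour of day 6 (4.11%) and in 1 line 18 tumour, both among the controls of day 10 and within its line (15.4%). In interferon-high cells the highest Cxcl9 value stood apart in line 15 (575 CPM), line 18 (377 CPM) and line 24 (1171 CPM), and the highest Cd274 value in line 24 (99.5 CPM). The highest Ifnb1 value stood apart in line 15 (25.7 CPM), line 18 (9.96 CPM), line 19 (73.6 CPM) and line 24 (22.5 CPM).

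The groups differed in the change of the share from day 6 to the later days, by 10.4 percentage points (permutation test), and in the step between the states for 143 genes by edgeR's quasi-likelihood test. The WT tumours, which entered no comparison, had shares of 18.9% on day 6 and 8.11% on day 16, above every control tumour of the same day.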

How the results depend on the processing

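No paired analysis was possible because the groups share no replicate numbers, the numbers being those of the lines. Libraries that hold both groups entered as a term or alone, which is not a pairing of tumours. Line is nested in group, and the cause of each change below was not tested. For the share in Mif KO against control, a top hashtag of at least 10 times the second gave 3.46 points (permutation p = 0.0696, the call lost), the mixed libraries 6.93, and leaving out a line 0.753 to 7.86. For the share over days, thinning to 1000 UMIs gave 1.42 points, no thinning 1.30, a minimum of 2 UMIs 6.52 and the summed level 147 CPM, none past the test, and leaving out a line 3.06 to 5.05. The change of the share from day 6 was 12.6 points in the mixed libraries (permutation p = 0.368) and 8.58 to 12.9 on leaving out a line, and of these alternatives only that without line 24 kept the call.

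Counts of genes over days 6 to 16 were 238 without marker-positive cells, 137 with at least 8 gate UMIs, 771 without a filter, 176 with the stricter hashtag and 163 to 610 on leaving out a line. Day 6 against day 0 gave 1980 genes with at least 8 gate UMIs and 1708 to 3178 on leaving out a line. Mif KO against control gave 0 genes with 1 sum per line, 1173 with at least 50 cells, 918 with at least 8 gate UMIs, 68 with a library term, 13 in the mixed libraries, 872 with the stricter hashtag and 894 to 2685 on leaving out a line. The step between states gave 58 genes without marker-positive cells, 69 in the mixed libraries, 312 without a filter and 27 to 226 on leaving out a line. High against zero gave 176 genes with a pseudocount of 1. The T-cell correlation was 0.265 in the line 19 library. The signs of 5 values turned: the T-cell correlation was -0.687 in the first mixed library, Mif over days was 0.016 without line 15 (from -0.20 to 0.016 on leaving out a line), Dcn in the step was -0.63 without marker-positive cells, and Mif in the step was -0.10 without those cells and -0.076 without line 19 (from -0.076 to 1.05 on leaving out a line). The whole gate on thinned counts, chosen after seeing the data, gave 3.69 and 3.62 points for the shares.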

Other observations

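The 3 tumours called WT in the hashtag sheet came from 1 mixed library and had no group in the sample labels. Interferon-high cells were 18.9% of their gate cells on day 6, 7.99% on day 10 and 8.11% on day 16 after thinning. Cells with stromal or skin markers were 10.1% of the 577 interferon-high cells on day 6, 5.24% of 248 on day 10 and 6.09% of 197 on day 16.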
